A study of Mus musculus with 9 samples.

Results

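Brush-border and enterocyte function genes are 10 genes of the mature absorptive cell of the small intestine, given by symbol: Mep1a, Mep1b, Anpep, Dpp4, Cdh17, Vil1, Fabp1, Fabp2, S100g and Ddc. All 10 of the 18193 genes on the array were found, with 16 probe sets that carry only that symbol, and each gene was read by its brightest probe set. They were measured in m-ICcl2 cells, a C57BL/6 mouse line from fetal small intestine that carries the SV40 large T antigen as a transgene in all 3 groups. What promoter drives the transgene is not stated in the labels. Cells were left unstimulated, kept for 6 h in lipopolysaccharide (LPS, a cell-wall endotoxin of Gram-negative bacteria) at a dose of 100 ng/mL, or given the same 6 h of LPS and then 90 h of medium without it; the last group was taken 96 h after the start of LPS and is named tolerant, after the series design. Each group had 3 arrays labelled as biological replicates. No separate cultures are named for them, and p-values measure the spread between these arrays only. The unstimulated arrays carry no culture time, so that time in culture and earlier LPS cannot be told apart in tolerant cells.

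An absorptive enterocyte carries a brush border, a dense carpet of microvilli whose actin cores are bundled by villin and whose membrane holds digestive enzymes. Peptidases of this membrane complete protein digestion, small cytosolic binding proteins take up fatty acids, and a cytosolic calcium-binding protein carries calcium across the cell under control of vitamin D. Many of these genes come on as cells leave the crypt and are used as markers of the mature villus cell.

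The cells had only part of an epithelial marker set. The keratin genes Krt8 (log2 12.72 to 13.51) and Krt18 (11.85 to 13.45) were bright on all 9 arrays. Cdh1, the E-cadherin gene, read 2.74 to 2.81 and Krt19 2.14 to 2.17, below log2 4 on every array, the level under which a gene was not counted as measured. Epcam, an epithelial adhesion gene, was below log2 4 on all unstimulated and 6 h arrays and at 5.64 ± 0.40 (SD, n = 3) in tolerant cells, at least 3.11-fold higher. It entered the test through its tolerant arrays alone, so its p is not given. Replicate 1 stood apart in all groups: its beta-actin controls read 0.40 to 0.72 log2 higher at the 3′ than at the 5′ end, against 1.02 to 1.38 on the other 6 arrays. For the Gapdh controls this difference ran from -0.20 to -0.06 in replicate 1 and overlapped the range of the remaining arrays, -0.24 to -0.16.

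The level filter split the 10 genes into those tested and those not, which does not show that the line lacks the latter. Mep1a, Cdh17, Vil1, Fabp1, S100g and Ddc lay at log2 4 or more on at least 3 arrays and were tested, and 4 were not. S100g passed this level through its tolerant arrays alone, so it had to differ. In tolerant against unstimulated cells S100g and Cdh17 rose and Ddc and Mep1a fell. Leaving S100g out of the count, 3 of the 5 other tested genes passed, where 26.2% of all 9431 tested genes did. With the replicate number as a block Fabp1 passed too, 4 of these 5 against 48.6% of all tested genes. For 4 of the 5, Fabp1 excepted, the tolerant and unstimulated arrays did not overlap, as for 47.1% of all tested genes. Of the 2 remaining genes, Fabp1 was higher and Vil1 lower in tolerant cells, neither past the test without the block. A change in these RNA pools can come from more or fewer cells of a kind or from more or less RNA in each cell, which cannot be told apart.

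**Figure D1:**
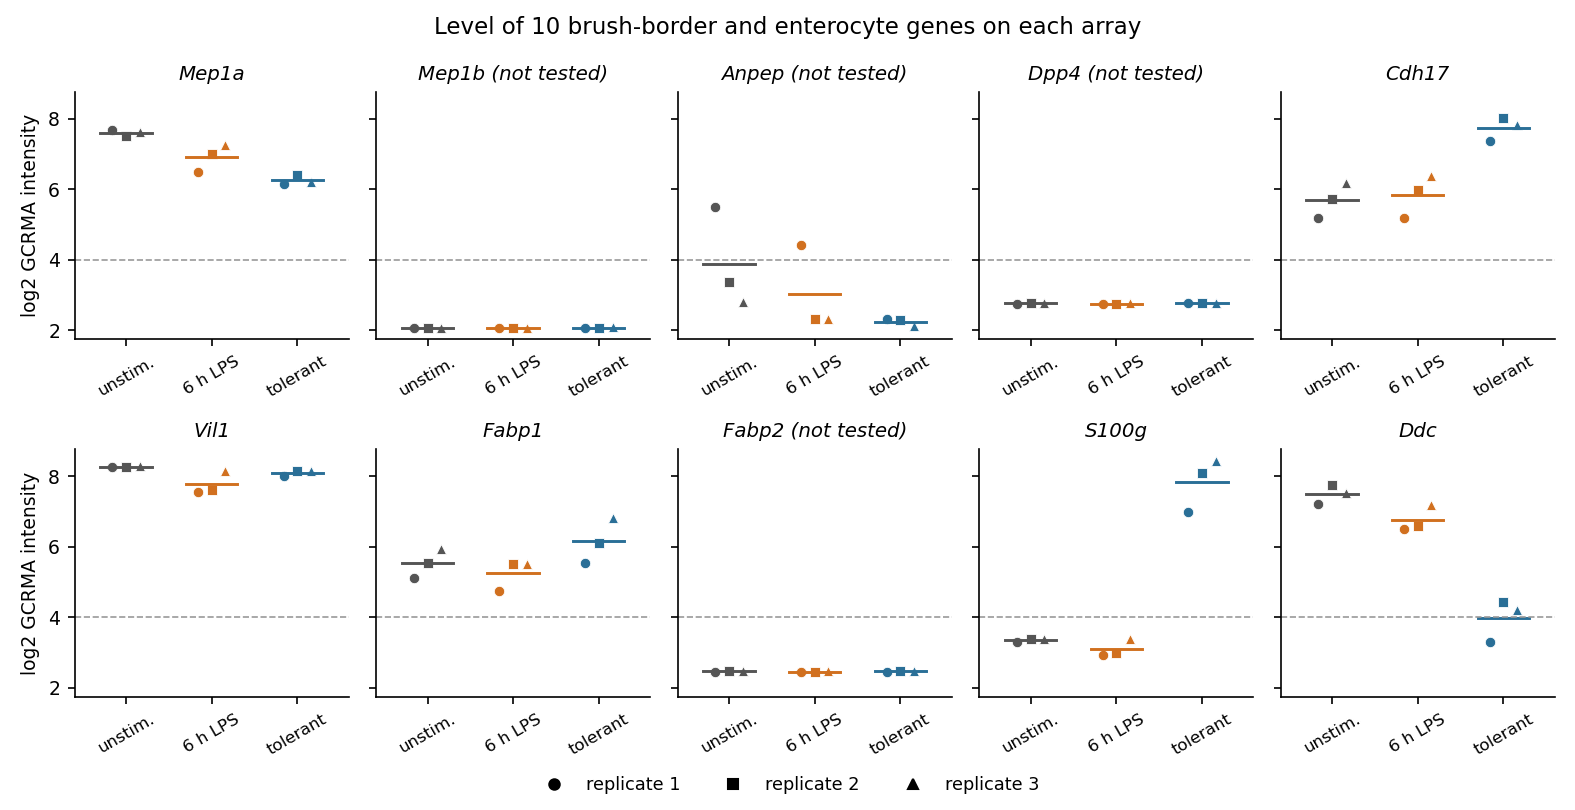
Log2 GCRMA intensity (y axis) of each gene's brightest probe set on the 9 arrays, by group (x axis: unstimulated, 6 h LPS, tolerant). Symbols mark replicates 1, 2 and 3, bars are group means and the dashed line is log2 4. S100g and Cdh17 are high on the tolerant arrays, Ddc and Mep1a are low there, and Mep1b, Dpp4 and Fabp2 stay flat below the line.

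The sequence before the start is shown for S100g, Ddc and Mep1a, which differed between tolerant and unstimulated cells, and beside them for Fabp1, which passed with the replicate block. RefSeq windows (GRCm38.p6), matched by symbol, were used for 8 of the 10 genes. Cdh17 had no window, and Mep1b was left out by a filter on genome position. The printed 250 bases end just before the annotated start and run 5′ to 3′ on the gene's strand: chrX:162964600-162964849 (minus strand) for S100g, chr6:71199629-71199878 (plus strand) for Fabp1, chr17:43502774-43503023 (minus strand) for Mep1a and chr11:11898145-11898394 (minus strand) for the outer of 2 annotated starts of Ddc. The start used for Mep1a lies inside the span that RefSeq lists for the gene, so its window is not upstream of the whole gene. Capitals mark any match, on either strand, to short motifs of intestinal transcription factors: CAAAGT for HNF4, GTTAAT for one arm of the HNF1 site, TTTAT for CDX and AGATAA for GATA, which may overlap each other.
S100g: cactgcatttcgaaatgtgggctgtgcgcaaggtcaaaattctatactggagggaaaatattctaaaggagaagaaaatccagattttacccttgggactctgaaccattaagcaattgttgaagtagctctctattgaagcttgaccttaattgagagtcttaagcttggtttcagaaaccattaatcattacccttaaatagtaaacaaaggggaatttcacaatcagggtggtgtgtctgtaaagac
Fabp1: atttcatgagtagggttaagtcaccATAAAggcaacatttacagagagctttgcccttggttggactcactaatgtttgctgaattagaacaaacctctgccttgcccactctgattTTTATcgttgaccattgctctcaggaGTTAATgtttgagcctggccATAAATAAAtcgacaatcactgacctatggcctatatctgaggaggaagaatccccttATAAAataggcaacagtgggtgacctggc
Mep1a: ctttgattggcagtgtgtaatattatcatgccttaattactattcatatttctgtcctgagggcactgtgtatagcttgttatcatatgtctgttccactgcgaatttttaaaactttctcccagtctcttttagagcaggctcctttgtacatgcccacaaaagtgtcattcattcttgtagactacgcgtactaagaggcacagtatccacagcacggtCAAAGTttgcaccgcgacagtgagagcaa
Ddc: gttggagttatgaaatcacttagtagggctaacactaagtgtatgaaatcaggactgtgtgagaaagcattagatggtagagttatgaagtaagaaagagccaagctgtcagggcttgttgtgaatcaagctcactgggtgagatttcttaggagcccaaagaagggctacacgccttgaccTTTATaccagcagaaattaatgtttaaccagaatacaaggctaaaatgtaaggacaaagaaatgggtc

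Fabp1 held 1 GTTAAT and, over both strands, TTTAT at 5 positions, 1 on the gene's strand and 4 on the other. Mep1a held 1 CAAAGT and the printed window of Ddc 1 TTTAT. The window of the inner Ddc start, chr11:11890409-11890658 (minus strand), is not printed and held 1 CAAAGT and 1 TTTAT, both on the other strand. The window of S100g held none of the 4 motifs. Over all 32851 windows of this length CAAAGT was found in 12.6%, GTTAAT in 6.43%, TTTAT in 37.3% and AGATAA in 9.99%. A match describes these letters only.

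S100g, which encodes the small calcium-binding protein of the intestine, read 3.29, 3.38 and 3.38 on unstimulated replicates 1, 2 and 3, 2.93, 2.98 and 3.38 at 6 h of LPS, and 6.97, 8.10 and 8.44 in tolerant cells (log2). All 6 arrays of the first groups lay below log2 4 and all tolerant arrays far above them, with a gap of 3.60 between the nearest arrays of tolerant and unstimulated cells. Tolerant cells were therefore at least 14.3-fold higher than either group, from a mean of 7.84 ± 0.77 (SD, n = 3) against the level of log2 4. Because the level filter fixed this difference, the test is given from the fit of all 18193 genes without that filter (limma, adjusted p = 0.00103 against unstimulated and 0.000989 against 6 h). At 6 h the gene was near the floor, where a difference has no order.

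Cdh17, the gene of a cadherin found on the side membrane of enterocytes, read 5.19, 5.74 and 6.17 on unstimulated arrays, 5.18, 5.98 and 6.37 at 6 h and 7.38, 8.02 and 7.82 in tolerant cells. The unstimulated and 6 h arrays overlapped throughout, and every tolerant array was above all of them. It rose 4.13-fold against unstimulated cells, a log2 difference of 2.04 with a standard error of 0.35 (limma, adjusted p = 0.0038), and 3.73-fold against 6 h (adjusted p = 0.0085). Only 1.9% of tested genes had a bigger absolute log2 difference between tolerant and unstimulated cells. At 6 h the difference was 0.14, with a 95% interval of -0.65 to 0.94.

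Fabp1, the liver-type fatty acid-binding protein that enterocytes also make, read 5.11, 5.54 and 5.93 on unstimulated arrays, 4.75, 5.49 and 5.51 at 6 h and 5.55, 6.10 and 6.82 in tolerant cells. Tolerant and unstimulated arrays overlapped, and the difference of 0.63 log2 (95% interval -0.19 to 1.44) did not pass (limma, adjusted p = 0.234). With the replicate number as a block it passed (adjusted p = 0.0118), since within each number the tolerant array was higher, by 0.43, 0.56 and 0.88. Against 6 h the difference was 0.90 log2, with no overlap between the groups (adjusted p = 0.144, and 0.00374 with the block). Its other probe set, 1417556_at, gave a bigger difference of 1.19 log2 against unstimulated cells, with readings below log2 4 on replicate 1 of the unstimulated and 6 h groups.

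Ddc and Mep1a, which fell, encode enzymes. Ddc, the decarboxylase that makes dopamine and serotonin from their amino acid precursors and is also active in intestinal epithelium, read 7.20, 7.74 and 7.51 on unstimulated arrays, 6.49, 6.59 and 7.19 at 6 h and 3.28, 4.43 and 4.19 in tolerant cells. No 2 groups overlapped, although the nearest arrays of unstimulated and 6 h cells were only 0.014 apart. The 6 h difference of -0.73 log2 did not pass without the replicate block (limma, adjusted p = 0.217) and did with it (0.0437). Tolerant cells were 11.5-fold lower than unstimulated cells, a log2 difference of -3.52 with a standard error of 0.32 (limma, adjusted p = 0.000225), and 6.91-fold lower than at 6 h (adjusted p = 0.000839), with 1 of 3 tolerant arrays and the tolerant mean of 3.97 below log2 4. With values under log2 4 set to log2 4 the difference from unstimulated cells was -3.28 log2, so that the 11.5-fold rests in part on a reading near the floor. Its other probe set, 1430591_at, stayed between 1.90 and 1.94 on all arrays, so that the fall rests on 1 probe set and averaging both gave -1.76.

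Mep1a encodes the alpha subunit of meprin, a zinc peptidase of the brush border. It read 7.69, 7.52 and 7.63 on unstimulated arrays, 6.50, 7.01 and 7.26 at 6 h and 6.15, 6.40 and 6.22 in tolerant cells, and the groups lay one below the other without overlap. Tolerant cells were 2.56-fold lower than unstimulated cells, a log2 difference of -1.35 with a standard error of 0.21 (limma, adjusted p = 0.00234). Of this difference, -0.69 log2 was present at 6 h (adjusted p = 0.125, and 0.037 with the replicate block), and the remaining step from 6 h was -0.67 (adjusted p = 0.0687, and 0.0243 with the block). The brightest probe set, 1447252_s_at, is of a kind that can match more than 1 transcript, and the second, 1450719_at, differed by -1.48 log2 between tolerant and unstimulated cells.

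Vil1, the gene of the actin-bundling protein villin, changed least between the ends of the time course. It read 8.25, 8.26 and 8.29 on unstimulated arrays, 7.56, 7.62 and 8.15 at 6 h and 8.005, 8.14 and 8.14 in tolerant cells. Its level in tolerant cells differed from that in unstimulated cells by -0.18 log2 (95% interval -0.59 to 0.23; limma, adjusted p = 0.515), although the arrays did not overlap. At 6 h it was lower on all arrays, by 0.49 log2 on average, which did not pass without the block (limma, adjusted p = 0.161) and did with it (0.0463).

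**Figure D2:**
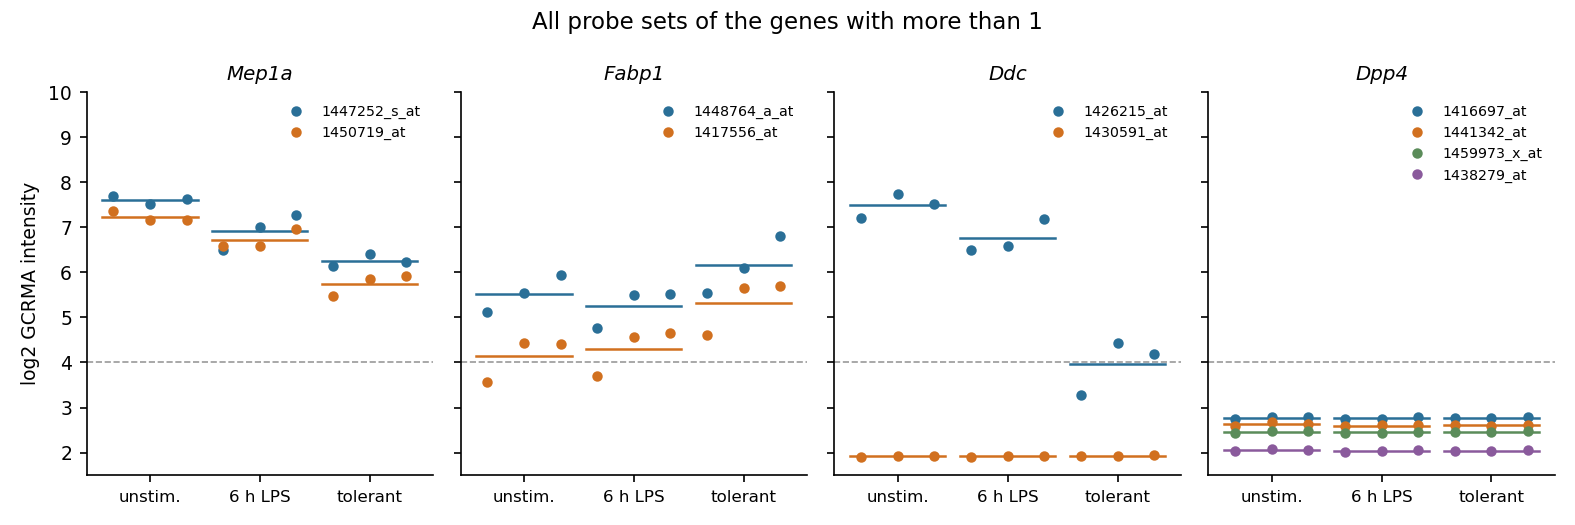
Log2 GCRMA intensity (y axis) of every probe set of Mep1a, Fabp1, Ddc and Dpp4 on each array, in the order of replicates 1 to 3 within each group (x axis), with bars at group means and a dashed line at log2 4. Both probe sets of Mep1a step down and both of Fabp1 are higher in tolerant cells, whereas 1 probe set of Ddc and all 4 of Dpp4 stay below log2 4.

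Mep1b, Fabp2 and Dpp4 were near the floor on every array, and Anpep passed log2 4 on 2 arrays. Mep1b, the meprin beta subunit, read 2.06 to 2.08 on all 9 arrays, and Fabp2, the intestinal-type fatty acid-binding protein, 2.43 to 2.47. Dpp4, a brush-border peptidase that removes dipeptides, read 2.74 to 2.79, with its 3 other probe sets between 2.02 and 2.69. Nothing can be said of a change in these 3 genes at this signal. Anpep, the aminopeptidase N gene, read 5.48, 3.37 and 2.80 on unstimulated arrays, 4.42, 2.32 and 2.31 at 6 h and 2.31, 2.303 and 2.12 in tolerant cells. Only replicate 1 of the unstimulated and 6 h groups was above log2 4, which left it outside the test, and in a fit of all 18193 genes without a level filter it was not called against unstimulated cells (limma, adjusted p = 0.345).

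Replicate 1 was the lowest array in every group for Cdh17, Vil1, Fabp1 and Ddc, 4 of the 5 tested genes other than S100g, a pattern seen in 22.4% of all tested genes. In a further 28.8% of all tested genes replicate 1 was the highest array in every group. For Anpep it was the highest array of the unstimulated and 6 h groups, while the tolerant arrays all lay at the floor. The part of replicate 1 in these results was not tested beyond leaving it out. From replicates 2 and 3 alone Cdh17, Ddc and Mep1a were again called in tolerant against unstimulated cells. S100g was called too, but it was tested through its tolerant arrays alone.

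**Figure D3:**
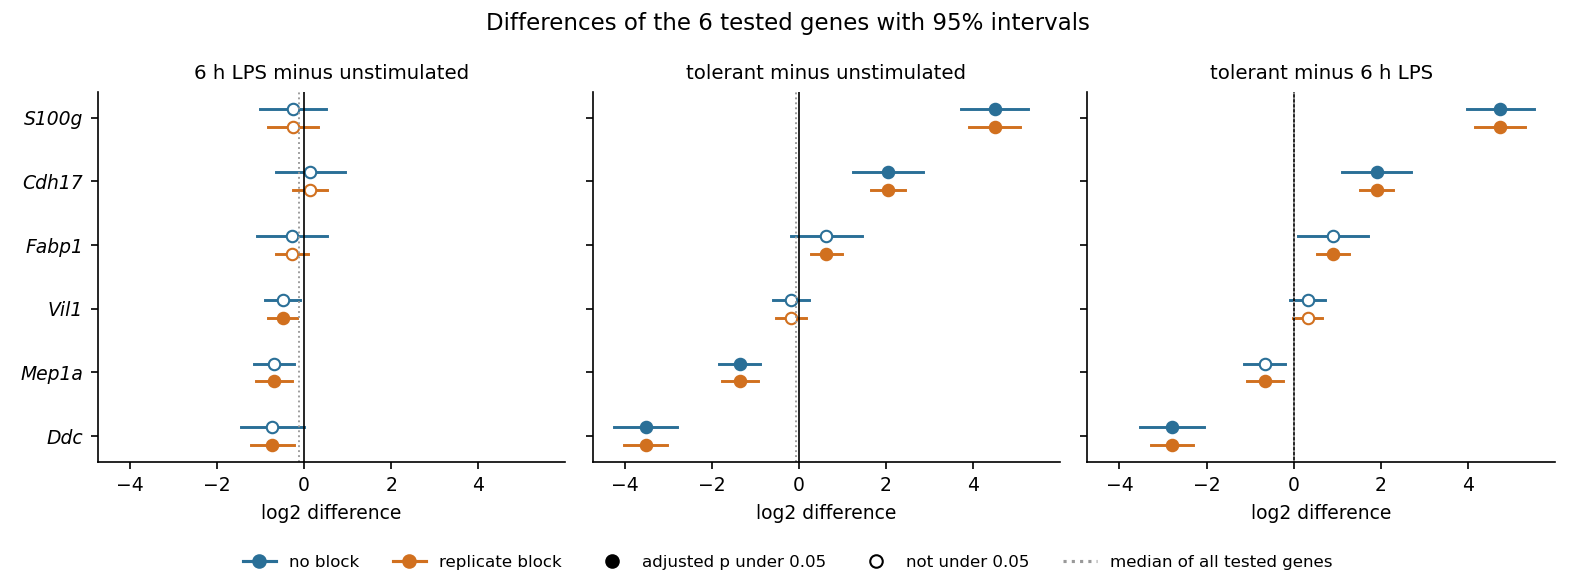
Log2 differences (x axis) of the 6 tested genes in the 3 comparisons, with 95% intervals from limma without (blue) and with (orange) the replicate block. Filled points have an adjusted p under 0.05 and the dotted line is the median of all tested genes. S100g and Cdh17 lie right of 0 and Ddc and Mep1a left of it in tolerant against unstimulated cells, and at 6 h only blocked points are filled. S100g passed the level filter through its tolerant arrays alone, so its filled points in the comparisons with tolerant cells were fixed by that filter.

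The 6 h comparison addressed the acute response. Of the 6 tested, 0 passed limma's test without the block, where 0.0636% of all tested genes did. Mep1a, Vil1 and Ddc had an unadjusted p below 0.05, as did 2163 of all 9431 tested genes. With the replicate block these 3 passed, all lower, where 24% of all tested genes passed and 12.5% were lower. Their arrays did not overlap with the unstimulated ones either, as for 26.1% of all tested genes. The median log2 difference of all tested genes was -0.11, and the 3 differences of -0.73 for Ddc, -0.69 for Mep1a and -0.49 for Vil1 are to be read against it. These calls depended on 1 array as well: without 6 h replicate 3, Mep1a (adjusted p = 0.0439) and Vil1 (0.0381) passed without a block.

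From 6 h to the tolerant state, S100g and Cdh17 rose and Ddc fell. Leaving S100g out, 2 of the 5 other tested genes passed, against 13.1% of all tested genes. With the block Fabp1 (higher) and Mep1a (lower) passed as well, 4 of these 5 against 31.7%, and the arrays of these 4 did not overlap between the groups, as for 31.3% of all tested genes. Both comparisons with tolerant cells share the tolerant arrays, so their values are not independent. For Cdh17 and Fabp1 the level at 6 h differed from the unstimulated level by less than its standard error without the block. With the block the Fabp1 difference of -0.28 log2 exceeded its standard error of 0.16. S100g was below log2 4 in both groups. For Ddc the step after 6 h, -2.79 log2, was the bigger one.

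Other enterocyte genes were taken from 6 lists by role, 88 genes in all. Of these 81 had a probe set and 36 were tested, while 43 of the remaining 45 lay below log2 4 on every array. Among the latter were genes that define villus cells: the lactase gene Lct (2.45 to 2.66) and the alkaline phosphatase gene Alpi (2.25 to 2.27). In tolerant against unstimulated cells 4 of the 36 rose and 7 fell, where 14% of all tested genes rose and 12.2% fell. With the replicate block 8 were higher and 12 lower, against 22.7% and 25.9% of all tested genes. Their median log2 difference was 0.03 and that of all tested genes -0.07. From 6 h to the tolerant state 6 rose and 5 fell, where 13.1% of all tested genes passed in either direction. Cideb, counted as falling in both comparisons with tolerant cells, passed the level filter through its unstimulated and 6 h arrays alone. At 6 h against unstimulated cells 0 of the 36 passed limma's test, and with the replicate block 3 were higher and 6 lower, against 11.6% and 12.5% of all tested genes.

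Of 13 digestive hydrolases with a probe set 3 were tested. Asah2, a neutral ceramidase of the brush border, rose 2.26-fold in tolerant cells, from 6.50 ± 0.19 to 7.68 ± 0.24 (SD, n = 3; limma, adjusted p = 0.00245). Folh1, a folate and glutamate carboxypeptidase, fell 2.26-fold from 6 h to the tolerant state (adjusted p = 0.0125).

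Of 19 microvillus structure genes with a probe set 16 were tested. In tolerant against unstimulated cells 1 rose and 3 fell, where 14% of all tested genes rose and 12.2% fell. With the replicate block 4 were higher and 4 lower, against 22.7% and 25.9% of all tested genes. The values below are without the block. Myo7b, a myosin that anchors the links between microvillus tips, rose 1.93-fold (limma, adjusted p = 0.0141). Anks4b, a scaffold of the same tip-link complex, fell 2.25-fold (adjusted p = 0.0113), so that 2 partners of a complex moved in opposite directions. Slc9a3r1, a scaffold that ties membrane proteins to ezrin, fell 2.02-fold (adjusted p = 0.0202), and Myo5b, the motor of apical membrane recycling, 1.96-fold (adjusted p = 0.00473). Ezr, the ezrin gene itself, differed by -0.003 log2 (adjusted p = 0.994). From 6 h to the tolerant state Myo7b rose 2.6-fold (adjusted p = 0.00449) and Baiap2l1, which shapes the membrane at microvillus tips, 1.74-fold (adjusted p = 0.0166), and Anks4b fell 2.7-fold (adjusted p = 0.00773).

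**Figure D4:**
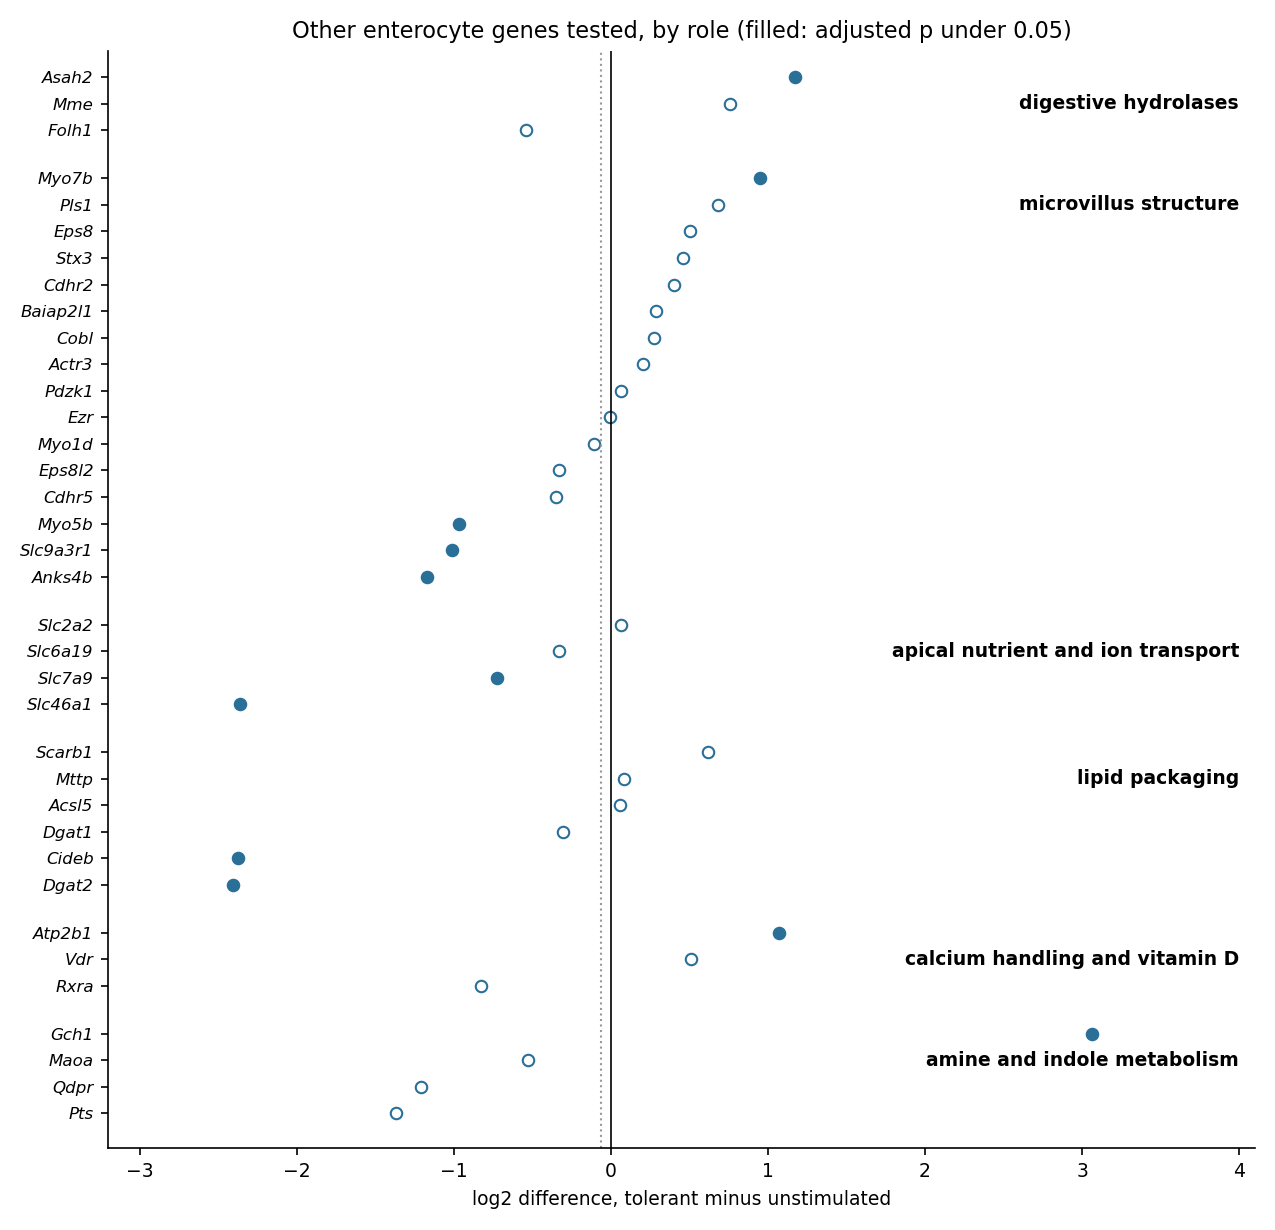
Log2 difference between tolerant and unstimulated cells (x axis) of the 36 tested genes of the 6 lists, 1 gene a row, grouped by role. Filled points passed limma's test and the dotted line is the median of all tested genes. Gch1 lies farthest right, and Dgat2, Cideb and Slc46a1 lie farthest left. Cideb passed the level filter through its unstimulated and 6 h arrays alone, so its filled point is no test.

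Against unstimulated cells the few calls among transport and lipid genes were downward, where 14% of all tested genes rose and 12.2% fell. Of 4 tested transporters 2 fell: Slc46a1, the proton-coupled folate carrier, 5.15-fold, from 7.63 ± 0.82 to 5.26 ± 0.54 (SD, n = 3; limma, adjusted p = 0.00508), and Slc7a9, the light chain of a cystine carrier, 1.65-fold (adjusted p = 0.00967). Of 6 tested lipid-packaging genes 2 fell. Dgat2, which makes triglyceride, fell 5.3-fold (limma, adjusted p = 0.000371), and Cideb, which acts in lipoprotein lipidation, at least 4.1-fold, with all tolerant arrays below log2 4. Cideb passed the level filter through its unstimulated and 6 h arrays alone, so its p is not given. Against 6 h, Dgat2 fell 3.39-fold (limma, adjusted p = 0.00238) and Slc46a1 3.25-fold (0.0322), and Cideb was at least 2.19-fold lower. Scarb1, a scavenger receptor for lipoprotein lipids, rose 2.47-fold from 6 h (limma, adjusted p = 0.0162).

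Around S100g, 3 of 7 calcium genes were tested. Atp2b1, the plasma membrane calcium pump, rose 2.1-fold in tolerant against unstimulated cells (limma, adjusted p = 0.0417), and at 6 h it was 2.48-fold higher (adjusted p = 0.115, and 0.0319 with the replicate block). The vitamin D receptor gene Vdr was 1.42-fold higher without passing (adjusted p = 0.0635, and 0.0279 with the replicate block), and against 6 h it rose 1.67-fold (adjusted p = 0.0261). Rxra, a partner receptor of Vdr, was lower in tolerant than in unstimulated cells by -0.82 log2 (adjusted p = 0.232, and 0.00247 with the block). The apical calcium channel gene Trpv6 read 3.18 to 3.30 on all arrays.

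Around Ddc, 4 of 12 amine genes were tested. Gch1, whose enzyme starts the synthesis of tetrahydrobiopterin, the cofactor of the hydroxylases upstream of Ddc, rose 8.37-fold in tolerant cells, with 1 of 3 unstimulated arrays below log2 4 (limma, adjusted p = 0.00328). Pts and Qdpr, which act later in making and recycling that cofactor, were 2.58-fold and 2.31-fold lower and did not pass without the block (adjusted p = 0.0735 and 0.0584) but did with it (0.000644 and 0.000392). The hydroxylase genes of this list, Th (2.24 to 2.26) and Tph1 (2.33 to 2.38), lay below log2 4 on every array. Markers of enteroendocrine cells, the other intestinal cells known for amine synthesis, were not measured: all 8 lay below log2 4 on every array, with a summed level of 5.35 to 5.39 in all groups.

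The genes whose levels followed each tested member most closely over the 9 arrays are given as a description, since arrays of a group share their treatment. For S100g they were Prap1 and Anxa13 (Pearson r of 0.997 for each), both below log2 4 on average in unstimulated and 6 h cells and at 6.53 and 6.57 in tolerant cells. For Ddc they were Cbr2 and Blvra (0.996 each) and for Mep1a Dab2 (0.992) and Psmc3 (0.988). For Cdh17 they were Gm32461 and Gpr137b-ps (0.990 each), for Vil1 Dnajc11 (0.985) and Haus7 (0.983), and for Fabp1 Ska1 (0.959) and Dsn1 (0.950).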

How the data were processed

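Per the submitters' processing notes the deposited values are GCRMA intensities, with a background modelled on probe sequence and normalization between arrays. They are on a linear scale and were turned into log2 without a pseudocount. Values crowd near a floor, so differences below log2 4 carry no order. The number of arrays limits the precision. Of 45101 probe sets, 34945 carried 1 gene symbol, for 18193 genes; the brightest on average stood for a gene. A gene was tested if 3 or more of its 9 values reached log2 4, which 9431 did. The test was lmFit with a mean per condition and eBayes in limma 3.58.1 (R 4.3.3), two-sided, with Benjamini-Hochberg adjustment over all genes tested at 0.05, after a check on simulated data. Named were all members and their probe sets, at most 3 called genes of each other list by size, and the 2 genes most like each tested member. Members, lists, markers, motifs and alternatives were chosen with earlier results of these data known.

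The labels number replicates 1, 2 and 3 in every condition without saying what a number shares. Across genes, deviations from the condition means correlated at 0.16 to 0.84 in every same-numbered pair, above the limit of 0.1 set for pairing, but also at 0.21 to 0.73 between replicates 2 and 3, and at -0.74 to -0.37 between replicate 1 and the others. Where a block on the replicate number changes the call of a tested member, both values are given. For genes of the other lists both values are given for some calls only.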

Additional observations from a re-analysis of the deposited data

How the results depend on the processing

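In tolerant against unstimulated cells Cdh17, Ddc and Mep1a passed under all 16 alternatives, and no called member changed direction in any comparison. S100g passed too, but except without the level filter it was tested through its tolerant arrays alone. The member counts below for tolerant cells include S100g. With the replicate block the genes called numbered 2267 at 6 h (6 without it), 4586 in tolerant against unstimulated cells (2470 without) and 2985 in tolerant against 6 h cells (1238 without), and the members called numbered 3 at 6 h (0 without) and 5 in tolerant against 6 h cells (3 without). At 6 h, 37 genes were called without the level filter and 14 with the mean of all probe sets. From replicates 2 and 3 only, 2126 genes and 5 members were called in tolerant against 6 h cells. Leaving out 1 array at a time gave 5 to 696 genes and 0 to 2 members at 6 h, the highest without 6 h replicate 3. It gave 1400 to 2908 genes in tolerant against unstimulated cells, the lowest without tolerant replicate 2, and 677 to 1282 genes and 3 to 4 members in tolerant against 6 h cells, the lowest gene count again without tolerant replicate 2. The cause was not tested. Where a group was left with fewer arrays, limma's spread comes from all groups. Signal near the floor limits S100g, Anpep, Mep1b, Dpp4 and Fabp2.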

Other observations

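Markers of other intestinal and stromal cells were mostly below log2 4. All 8 fibroblast and all 3 tuft markers lay below log2 4 on every array. Of 7 goblet markers, Fcgbp was measured (6.83 in unstimulated, 6.52 in 6 h and 6.995 in tolerant cells), and of 5 Paneth markers only Mmp7, at 4.14, 4.83 and 8.68. Of 7 leukocyte markers Csf1r and Cd14 were measured, and the other 5 were below log2 4 on all arrays. Csf1r read 10.79, 10.32 and 8.84, whereas Cd14 went the other way, at 7.53, 8.14 and 8.05.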
